A study of Rattus norvegicus with 13 samples.

Results

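The transcripts described here encode 6 sodium-calcium exchangers of the plasma membrane, measured in the rat hypothalamus after feeding on diets of different fat. The genes Slc24a2, Slc24a3 and Slc24a4 encode the potassium-dependent exchangers NCKX2, NCKX3 and NCKX4. The others, Slc8a1, Slc8a2 and Slc8a3, encode the potassium-independent exchangers NCX1, NCX2 and NCX3. The genes were chosen by name, from the rows of the deposited table annotated with exactly 1 gene symbol, and are 6 of 22093 such genes. Each of the 6 has 1 row, so the choice by mean signal among several rows of a gene decided nothing here. Slc24a2 had been singled out with earlier results of these data in view, so its levels and differences are given as a description with no test.

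Male Sprague-Dawley rats ate 1 of 3 diets over 2 months, to an age of 14 to 15 weeks, and every group, the low-fat one included, came from the same supplier and ate freely. HF-SD, the high-fat safflower oil diet, supplies linoleic acid, an omega-6 fat, with 35% of energy as oil (5 arrays). HF-FD, the high-fat flaxseed oil diet, supplies alpha-linolenic acid, an omega-3 fat, also with 35% of energy as oil (4 arrays). LF-CD, the low-fat control diet, has 16% of energy as soybean oil (4 arrays), so the control differs from both high-fat diets in the kind of oil as well as in its amount. The tissue was micro-dissected hypothalamus. The labels do not say whether an array held RNA of 1 rat, so p-values measure the spread between arrays, which may be partly technical.

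Sodium-calcium exchangers use the sodium gradient kept up by the sodium pump to carry calcium out of the cell, and NCKX proteins use the potassium gradient as well. In neurons they clear calcium that enters through voltage-gated channels during firing, beside the calcium pumps of the plasma membrane, which bind calcium more tightly and work more slowly. NCKX2 is known from neurons and cone photoreceptors, NCX1 from heart and brain, NCX2 from brain, and NCX3 from brain and skeletal muscle.

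Values are log2 signals made by the authors with RMA, the robust multi-array average, and 16033 genes with a mean of at least 6.58 were tested with limma in 1 fit of the 3 diets. All 6 exchanger genes passed this minimum, with means over the 13 arrays from 7.66 for Slc24a4 to 10.60 for Slc24a2. A signal depends on its probes, so these means do not order the genes by abundance. All 13 markers fixed for the hypothalamus, among them Oxt, Pmch, Hcrt and Sim1, also passed it. Precision is limited by how many arrays there are: over all genes, a log2 difference had a median SE of 0.0775 in both comparisons with HF-SD and 0.0817 in HF-FD against LF-CD. Signals were not equally spread in the 3 diets: their interquartile range over tested genes was 1.51 to 1.68 on HF-SD, 1.39 to 1.52 on HF-FD and 1.33 to 1.39 on LF-CD arrays, and the median signal of 1128 olfactory receptor genes, a measure of background, was 4.69 to 4.79, 4.84 to 4.95 and 4.95 to 5.11. The median difference between diets also varied with signal level, and each exchanger is set beside the median of its decile, the 1603 or 1604 tested genes nearest to it in mean signal when all are cut into 10 equal bins.

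Slc24a2 was higher on the safflower arrays than on those of either other diet. Its log2 signal was 11.01, 11.02, 10.98, 10.70 and 11.26 on HF-SD, 9.85, 10.46, 10.31 and 10.60 on HF-FD, and 10.54, 10.54, 10.27 and 10.30 on LF-CD arrays. Every HF-SD array lay above every array of both other diets, while the HF-FD and LF-CD arrays overlapped. The lowest of all was HF-FD replicate 1, and the HF-SD array nearest to the other diets was replicate 4. The means were 10.99 ± 0.20 (SD, n = 5) on HF-SD, 10.30 ± 0.33 (SD, n = 4) on HF-FD and 10.41 ± 0.15 (SD, n = 4) on LF-CD.

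**Figure D1:**
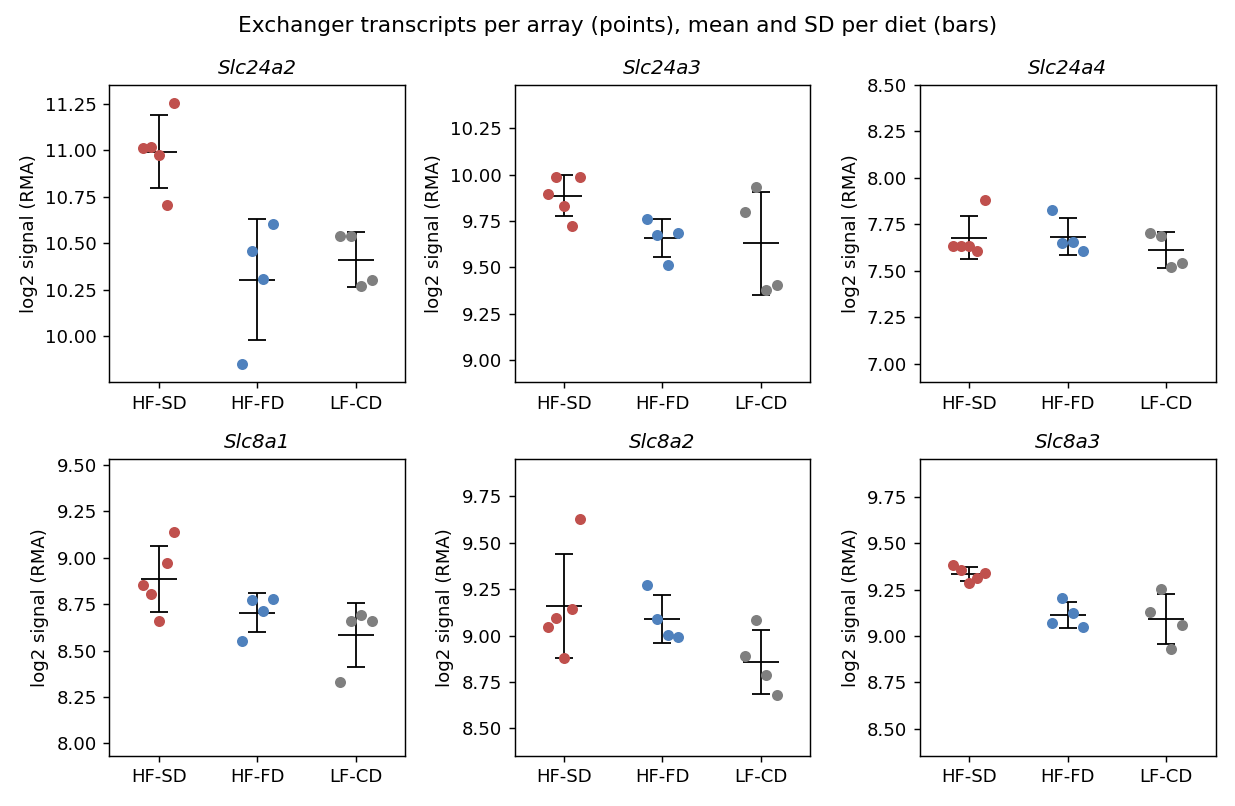
Log2 signal (RMA) of the 6 exchanger genes on each array. Points are arrays, bars the mean and SD of a diet, and every panel spans the same 1.6 log2 units around its own centre. The 5 HF-SD arrays of Slc24a2 (10.70 to 11.26) and of Slc8a3 (9.28 to 9.38) lie above all arrays of both other diets, and the other 4 genes overlap.

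Against flaxseed at the same fat content, Slc24a2 was 1.61-fold higher with safflower (log2 difference 0.69, SE 0.14, 95% confidence interval 0.40 to 0.98). It ranked 11 of the 16033 genes tested by that difference, and the median of its decile was 0.11. A complete separation upward in this comparison was found for 2.2% of all genes tested, and downward for 3.7%. Against the low-fat diet Slc24a2 was 1.50-fold higher with safflower (log2 difference 0.58, SE 0.14, 95% confidence interval 0.29 to 0.87), ranking 35 of 16033, beside a median of 0.26 in its decile. Complete separation upward was found there for 13.5% of all genes tested, and downward for 12.5%. For HF-FD minus LF-CD the log2 difference of Slc24a2 was -0.11 (SE 0.14, 95% confidence interval -0.41 to 0.20). It stood below the 0.14 of its decile, and 98.8% of the genes in that decile had a higher value. Complete separation upward was found for 5.88% of all genes tested in that comparison and downward for 2.44%, and for none of the 6 exchangers. The order of the levels was thus HF-SD, LF-CD and HF-FD, of which LF-CD and HF-FD did not differ beyond their spread. Any 2 of these comparisons share the arrays of 1 diet, so they are not independent of each other. Slc24a2 was singled out with earlier results in view, so its intervals, ranks and separations describe it and test nothing. They may overstate its differences.

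The separation of safflower from flaxseed was kept under another scaling, that from low-fat was not. With quantile normalization of the whole table, Slc24a2 stood at 11.14, 10.87, 11.22, 10.56 and 11.45 on HF-SD, 9.84, 10.38, 10.28 and 10.50 on HF-FD, and 11.31, 10.77, 10.32 and 10.31 on LF-CD arrays. All HF-SD arrays again lay above all HF-FD arrays, with a log2 difference of 0.80 (SE 0.22). LF-CD replicate 1 then lay above 4 of the 5 HF-SD arrays, and the log2 difference of HF-SD minus LF-CD was 0.37 (SE 0.22), ranking 566 of 16033. Without HF-FD replicate 1, the deposited values gave 0.54 for HF-SD minus HF-FD and turned HF-FD minus LF-CD to 0.04.

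The levels of several cell type markers differed between diets on the same arrays, though none of the 14 marker lists passed in any comparison once adjusted over the lists. With so few arrays, the exact permutation p cannot fall below 0.00794 in the comparisons with HF-SD or 0.0286 in HF-FD minus LF-CD. Lists with completely separated arrays reached these limits and still did not pass when adjusted. Not passing therefore does not show that the levels of a list were alike. The 8 neuron markers, all past the minimum signal, had a mean log2 signal of 11.06 to 11.52 on HF-SD, 11.01 to 11.04 on HF-FD and 10.80 to 11.21 on LF-CD arrays, and 6 of the 8 rose with safflower against low-fat, beside 56.8% of the genes in their deciles and 22.9% of all genes. The difference of their mean was 0.35 for HF-SD minus LF-CD (exact permutation p = 0.0397, two-sided, 0.167 when adjusted over 14 marker lists) and 0.32 for HF-SD minus HF-FD (exact permutation p = 0.0159, adjusted 0.111). Of 8 oligodendrocyte markers 7 were measured, at 10.13 to 10.69 on HF-SD, 9.53 to 10.20 on HF-FD and 9.99 to 10.26 on LF-CD arrays. Their lowest value, 9.53, was on HF-FD replicate 1, the array with the lowest Slc24a2. Their mean differed by 0.33 for HF-SD minus LF-CD and 0.42 for HF-SD minus HF-FD. The 7 thalamus markers ran from 9.42 to 9.99 on HF-SD, 9.31 to 9.79 on HF-FD and 9.12 to 9.69 on LF-CD arrays. Their mean differed by 0.27 for HF-SD minus LF-CD and 0.23 for HF-SD minus HF-FD. Endothelial and mural markers differed by 0.27 for HF-SD minus LF-CD and 0.38 for HF-SD minus HF-FD. Astrocyte markers differed by 0.18 and 0.05 in that order, and oligodendrocyte precursor markers by 0.15 and 0.18. Microglia markers differed by 0.10 and -0.02 and striatum markers by 0.15 and 0.03. After quantile normalization, HF-SD minus LF-CD was 0.21 for neuron, 0.13 for oligodendrocyte, 0.10 for thalamus and 0.15 for endothelial and mural markers. It was then -0.13 for ependymal and choroid plexus, -0.31 for pituitary and -0.80 for skeletal muscle markers. Other lists went the other way with safflower. Ependymal and choroid plexus markers (6 of 7 measured) had 7.19 to 7.36 on HF-SD, 7.32 to 7.76 on HF-FD and 7.43 to 7.66 on LF-CD arrays, a difference of -0.23 both for HF-SD minus LF-CD (exact permutation p = 0.00794, adjusted 0.0556) and for HF-SD minus HF-FD (exact permutation p = 0.0238, adjusted 0.111). The mean of 7 pituitary markers, of which 3 were past the minimum signal, differed by -0.46 for HF-SD minus LF-CD (exact permutation p = 0.0476, adjusted 0.167) and -0.48 for HF-SD minus HF-FD (exact permutation p = 0.0238, adjusted 0.111). Skeletal muscle markers differed by -0.89 for HF-SD minus LF-CD (exact permutation p = 0.00794, adjusted 0.0556) and -0.09 for HF-SD minus HF-FD. In the same order, blood cell markers differed by -0.38 and -0.49 and hypothalamus markers by -0.11 and -0.20. Of 8 cortex and hippocampus markers 7 were measured. They ran from 8.22 to 9.27 on HF-SD, 8.21 to 8.39 on HF-FD and 8.13 to 8.51 on LF-CD arrays. Their 9.27 was on HF-SD replicate 5, the array with the highest Slc24a2 (11.26), and the next highest HF-SD array had 8.38. The part of these marker lists in the values of Slc24a2 and the other exchangers was not tested. In bulk tissue, more cells of a type and more RNA per cell cannot be told apart.

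**Figure D2:**
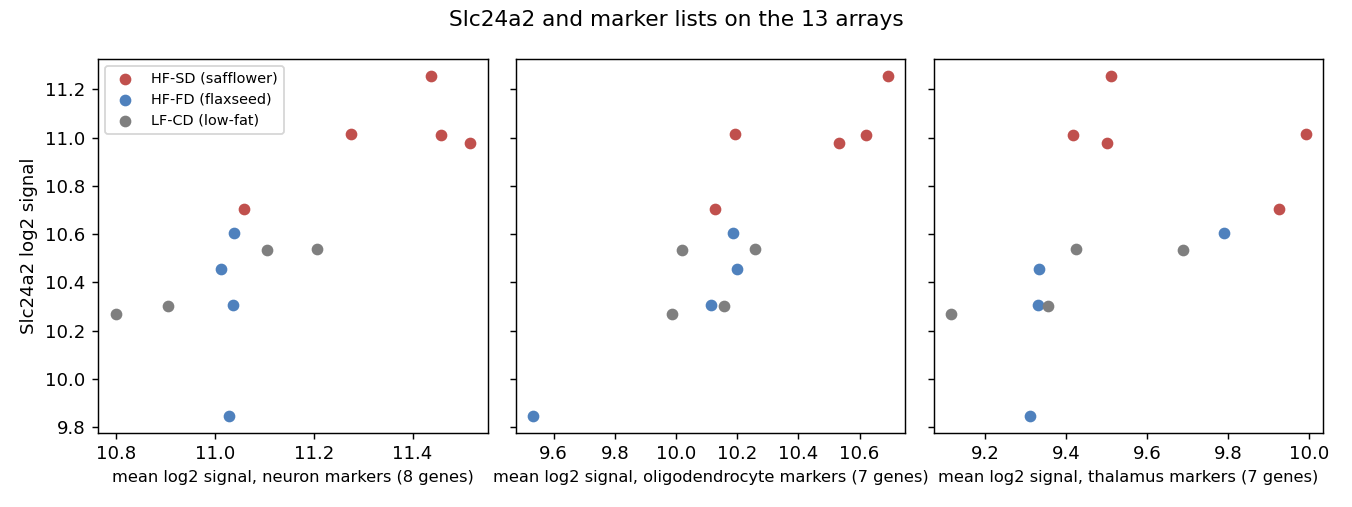
Log2 signal of Slc24a2 against the mean log2 signal of neuron, oligodendrocyte and thalamus markers, 1 point per array, coloured by diet. The 5 HF-SD arrays have the highest Slc24a2 values in each panel, and HF-FD replicate 1 is lowest for both Slc24a2 (9.85) and the oligodendrocyte markers (9.53).

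The genes most like Slc24a2 over the 13 arrays were Far2, a fatty acyl-CoA reductase (Pearson r = 0.97, Spearman rho = 0.98), Etl4 (r = 0.95, rho = 0.91), Mast4, a microtubule-associated kinase (r = 0.95, rho = 0.88), Kcnc1, a potassium channel of fast-spiking neurons (r = 0.94, rho = 0.89), and Sphkap, a kinase-anchoring protein (r = 0.93, rho = 0.93). Without the 2 arrays farthest from the median of Slc24a2, HF-SD replicate 5 and HF-FD replicate 1, their r was 0.86 to 0.96. The mean log2 signal of Far2 was 9.03 on HF-SD, 8.51 on HF-FD and 8.56 on LF-CD arrays. After subtracting each diet's mean, which leaves only differences between arrays of a diet, the closest were Etl4 (r = 0.93, rho = 0.88), Far2 (r = 0.91, rho = 0.94), Gabrb2, a GABA-A receptor subunit (r = 0.91, rho = 0.83), Oxr1, an oxidation resistance protein (r = 0.90, rho = 0.79), and Pex19, a peroxisome import factor (r = 0.88, rho = 0.79). The arrays share diets, normalization and tissue makeup, so these values describe likeness and carry no test. Among the other exchangers, r with Slc24a2 over the 13 arrays was 0.80 for Slc8a3 (rho = 0.82), 0.66 for Slc24a3 (rho = 0.76), 0.60 for Slc8a1 (rho = 0.67), 0.36 for Slc8a2 (rho = 0.34) and 0.14 for Slc24a4 (rho = 0.12). By r they ranked 276, 1109, 1685, 4693 and 7293, with provisional LOC and RGD symbols left out, so many other genes were more like Slc24a2. The median r over all genes tested was 0.08. Without the 2 farthest arrays, r of these exchangers was 0.83, 0.82, 0.32, 0.45 and 0.32, so only that of Slc8a1 fell. After subtracting diet means r was at most 0.39, for Slc24a3. The 2 farthest arrays were then HF-FD replicate 1 and HF-SD replicate 4. Without them r was 0.67 for Slc24a3, 0.59 for Slc8a2 and 0.55 for Slc24a4, so the lower values of these genes rest on those arrays.

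With the deposited values, Slc24a2 and Slc8a3 were the members whose safflower arrays all lay above those of both other diets. The windows around their annotated starts are shown because no other sequence of theirs was used here. Each window runs from 250 bases before to 50 after the gene's start in RefSeq (build GRCr8). All 6 members had such a window. Slc24a2 lies on the minus strand at chr5:106787731-106788030 and Slc8a3 on the minus strand at chr6:106738456-106738755. The windows are given 5′ to 3′ along the gene, with matches to the motifs named next in capitals.
Slc24a2: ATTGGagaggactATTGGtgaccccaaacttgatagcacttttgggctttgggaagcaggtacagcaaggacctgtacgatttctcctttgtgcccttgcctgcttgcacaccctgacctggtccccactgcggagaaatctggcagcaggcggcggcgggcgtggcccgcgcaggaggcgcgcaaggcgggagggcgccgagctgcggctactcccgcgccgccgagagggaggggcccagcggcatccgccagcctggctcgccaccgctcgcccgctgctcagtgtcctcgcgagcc
Slc8a3: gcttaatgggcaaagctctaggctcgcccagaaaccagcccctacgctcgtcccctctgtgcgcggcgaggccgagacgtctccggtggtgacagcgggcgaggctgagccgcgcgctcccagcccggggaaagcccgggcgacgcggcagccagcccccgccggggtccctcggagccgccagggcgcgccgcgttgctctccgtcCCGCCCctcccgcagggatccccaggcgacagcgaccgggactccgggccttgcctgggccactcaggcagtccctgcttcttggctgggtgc
The motifs searched on both strands were the cyclic AMP response element (TGACGTCA) with the shorter core within it (TGACG), the Sp1 box (GGGCGG), the E-box (CACGTG), the CCAAT box, the TATA box (TATAAA), the PPAR response element and the sterol response element. A TGACG match can overlap the full element. The Slc24a2 window holds CCAAT on the opposite strand at bases 1 to 5 and 14 to 18, and CCAAT is found in 37.5% of 33469 windows of the same length. The Slc8a3 window holds GGGCGG on the opposite strand at bases 208 to 213, as do 33.1% of windows on either strand. The windows of these 2 genes share none of the motifs. No PPAR or sterol element match is in any of the 6 windows (0.0538% and 0.125% of all windows hold one).

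Slc24a3 and Slc24a4, the other NCKX genes, differed less. Slc24a3 is known from brain and smooth muscle. Its log2 signal was 9.90, 9.99, 9.83, 9.73 and 9.99 on HF-SD, 9.76, 9.68, 9.51 and 9.69 on HF-FD, and 9.80, 9.93, 9.38 and 9.41 on LF-CD arrays. Replicates 1 and 2 of LF-CD reached into the HF-SD range, and 4 of 5 HF-SD arrays lay above all HF-FD arrays. The log2 difference was 0.26 for HF-SD minus LF-CD (SE 0.11, limma adjusted p = 0.0672), the same as the median of its decile, 0.23 for HF-SD minus HF-FD (SE 0.11, limma adjusted p = 0.324) and 0.03 for HF-FD minus LF-CD (SE 0.11, limma adjusted p = 0.893). For HF-SD minus LF-CD it was 0.042 after quantile normalization, 0.087 with cyclic loess and 0.071 with array weights. The 95% confidence intervals with the deposited values were 0.03 to 0.49, -0.00 to 0.46 and -0.21 to 0.27 for the 3 comparisons in that order.

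Slc24a4, known from olfactory neurons and enamel-forming cells, had values of 7.64, 7.64, 7.64, 7.61 and 7.88 on HF-SD, 7.83, 7.65, 7.65 and 7.60 on HF-FD, and 7.70, 7.69, 7.52 and 7.54 on LF-CD arrays. The 3 diets overlapped, and HF-SD replicate 5, the array with the highest cortex and hippocampus markers, stood above the other 4 of its diet. Its log2 differences were 0.07 (SE 0.07, 95% confidence interval -0.09 to 0.22), -0.00 (-0.16 to 0.15) and 0.07 (-0.09 to 0.23) for HF-SD minus LF-CD, HF-SD minus HF-FD and HF-FD minus LF-CD, with limma adjusted p = 0.468, 0.977 and 0.59.

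Of the NCX genes, Slc8a3 and Slc8a1 rose with safflower against the low-fat diet. Slc8a3 stood at 9.38, 9.36, 9.28, 9.31 and 9.34 on HF-SD, 9.07, 9.20, 9.12 and 9.05 on HF-FD, and 9.13, 9.25, 8.93 and 9.06 on LF-CD arrays. The HF-SD arrays spread little (SD 0.04, n = 5) and all lay above every array of the other diets, which overlapped. Complete separation upward was found for 13.5% of all genes tested against LF-CD and for 2.2% against HF-FD. The gene rose 1.18-fold in HF-SD against LF-CD (log2 difference 0.24, SE 0.06, limma adjusted p = 0.0112), beside a median of 0.21 in its decile. After quantile normalization it did not pass (0.08, limma adjusted p = 0.412). Its HF-SD and LF-CD arrays then overlapped, while all HF-SD arrays still lay above all HF-FD arrays. Against HF-FD the log2 difference was 0.22 (SE 0.06, limma adjusted p = 0.246), beside 0.09 in its decile, and for HF-FD minus LF-CD it was 0.02 (SE 0.07, limma adjusted p = 0.894). NCX3 is also a muscle transcript, and 9 of 10 skeletal muscle markers were measured, at 7.02 to 7.17 on HF-SD, 7.12 to 7.26 on HF-FD and 7.32 to 9.69 on LF-CD arrays. The highest, LF-CD replicate 3, had the lowest Slc8a3 of all arrays, and without it the log2 difference was 0.19 (limma adjusted p = 0.0242). The part of the muscle markers in the Slc8a3 values was not tested.

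Slc8a1 stood at 8.86, 8.81, 8.66, 8.97 and 9.14 on HF-SD, 8.55, 8.77, 8.71 and 8.78 on HF-FD, and 8.33, 8.66, 8.69 and 8.66 on LF-CD arrays. In HF-SD, 4 of 5 arrays lay above all LF-CD arrays, and replicate 3 lay among them. It rose 1.23-fold in HF-SD against LF-CD (log2 difference 0.30, SE 0.10, limma adjusted p = 0.0254), beside a median of 0.17 in its decile. After quantile normalization it did not pass (0.21, limma adjusted p = 0.168). With the olfactory receptor median as a covariate, a fit in which no gene passed, its direction turned (-0.13, SE 0.22, limma adjusted p = 0.83). That median did not overlap between HF-SD and LF-CD arrays, so this fit can hardly tell it from diet. LF-CD replicate 1, at 8.33, was the lowest of all arrays, and without it Slc8a1 did not pass (log2 difference 0.22, limma adjusted p = 0.0879). It did not pass without HF-SD replicate 5 either (log2 difference 0.24, limma adjusted p = 0.0644). The other log2 differences were 0.18 for HF-SD minus HF-FD (SE 0.10, limma adjusted p = 0.363) and 0.12 for HF-FD minus LF-CD (SE 0.10, limma adjusted p = 0.508).

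Slc8a2 had 9.05, 9.09, 8.88, 9.14 and 9.63 on HF-SD, 9.27, 9.09, 9.001 and 8.99 on HF-FD, and 8.89, 9.08, 8.79 and 8.68 on LF-CD arrays. The groups overlapped in every comparison, and HF-SD replicate 5, the array with the highest cortex and hippocampus markers, was the highest array. The log2 difference for HF-SD minus LF-CD, 0.30 (SE 0.13), was about as large as that of Slc8a1 but did not pass (limma adjusted p = 0.0683). It was 0.18 without HF-SD replicate 5, 0.16 after quantile normalization and 0.075 with array weights. For HF-FD minus LF-CD it was 0.23 (SE 0.13, limma adjusted p = 0.32), the highest of the 6 members in that comparison, and for HF-SD minus HF-FD 0.07 (SE 0.13, limma adjusted p = 0.79).

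**Figure D3:**
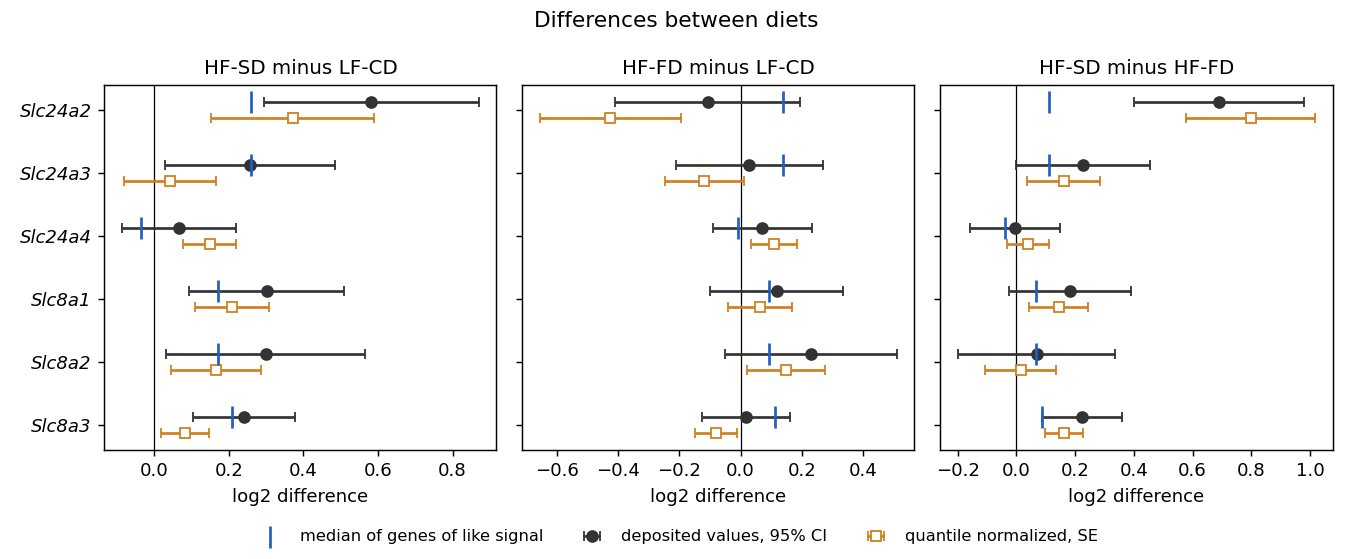
Log2 differences of the 6 exchanger genes in the 3 comparisons. Filled circles are the deposited values with 95% confidence intervals, open squares the values after quantile normalization with SE, and blue ticks the median of all genes in the same decile by mean signal. Slc24a2 lies to the right of its tick in both comparisons of HF-SD (0.58 and 0.69) and to the left of it in HF-FD minus LF-CD (-0.11).

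Counted together, 2 of the 5 tested members were higher with safflower than with low-fat (Slc8a1 and Slc8a3), 3 did not pass and none was lower. Over all genes 39.8% passed in this comparison, 22.9% higher and 16.9% lower (57.6% of the calls higher). In the deciles of Slc24a3, Slc24a4, Slc8a1, Slc8a2 and Slc8a3, 58.7%, 11.4%, 34.2%, 34.2% and 43.8% of genes were higher. With 5 members, 2 calls do not set them apart from genes of like signal. All 6 members, Slc24a2 included, had a positive log2 difference, with a median of 0.28 beside 0.07 over all genes tested. The medians of their deciles were 0.26 for Slc24a2 and Slc24a3, -0.03 for Slc24a4, 0.17 for Slc8a1 and Slc8a2 and 0.21 for Slc8a3. Positive differences were thus common at such signal, except in the decile of Slc24a4. After quantile normalization none of the 5 passed, their adjusted p running from 0.168 to 0.852, and the median of the 6 was 0.16 beside 0.04 over all genes, of which 14.5% then passed, 10.1% higher (69.9% of the calls). With cyclic loess none passed either, with 68% of all calls higher. Median centring, which adds 0.21 to every log2 difference of this comparison, put all 5 past the threshold, with 98.3% of all calls higher.

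In HF-FD minus LF-CD no member passed limma's threshold, nor did any other gene (0% of those tested, with 3226 at an unadjusted p under 0.05 and 4713 past the threshold with array weights). Of the 6 members 5 had a positive log2 difference, and the median was 0.05, the same as over all genes. The medians of their deciles were 0.14 for Slc24a2 and Slc24a3, -0.01 for Slc24a4, 0.09 for Slc8a1 and Slc8a2 and 0.11 for Slc8a3. In HF-SD minus HF-FD again 0% passed (2480 at an unadjusted p under 0.05, 4667 past the threshold with array weights). There 5 of the 6 log2 differences were positive, with a median of 0.20 beside 0.00 over all genes. The decile medians were 0.11 for Slc24a2 and Slc24a3, -0.04 for Slc24a4, 0.07 for Slc8a1 and Slc8a2 and 0.09 for Slc8a3. With array weights Slc24a3 and Slc8a3 passed in this comparison (limma adjusted p = 0.0376 and 0.0166). That fit leaned on few arrays: HF-FD replicate 2 had a weight of 3.81, and the other HF-FD arrays 0.39 to 0.99. On HF-SD arrays the weights ran from 0.46 to 2.95.

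Other genes that move calcium and sodium were taken from lists of 70 genes, of which 61 were tested. In HF-SD against LF-CD 26 rose, 6 fell and 29 did not pass, with a median log2 difference of 0.20. Over all genes tested 22.9% were higher and 16.9% lower. In the deciles of the 61 genes, averaged over them, 37.1% were higher and 6.83% lower, so the lists lie among genes of high signal, where more genes were higher with safflower. The neuron markers differed by 0.35 in the same comparison, and their part in the values of these lists was not tested. After quantile normalization 1 was higher and 1 lower, with a median of 0.06. The other exchangers went the other way from the NCX members: Slc24a1, the rod photoreceptor NCKX1, fell by 0.27 on the log2 scale (SE 0.06, limma adjusted p = 0.00699) and Slc8b1, the mitochondrial sodium-calcium exchanger NCLX, by 0.23 (SE 0.07, limma adjusted p = 0.0214). Of these only Slc8b1 passed after quantile normalization (log2 difference -0.24, limma adjusted p = 0.0318). Slc24a5, the exchanger of pigment cells, was below the minimum signal.

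All 4 plasma membrane calcium pumps rose with safflower, with a median log2 difference of 0.33. All lie in the top decile, where 58.7% of genes were higher and the median was 0.26. Among them Atp2b1 (0.48) and Atp2b3 (0.25) had the smallest p. All 3 measured sodium pump subunits rose, among them the beta subunits Atp1b1 (0.37) and Atp1b2 (0.36), where 50.5% of the genes of their deciles were higher. The catalytic alpha subunits were not among the genes with exactly 1 symbol and were not analysed here. Of 5 pumps of the endoplasmic reticulum and Golgi 2 rose, Atp2c1 (0.32) and Atp2a2 (0.31), and 1 fell (28.5% higher and 18.4% lower in their deciles). None of these pump genes passed after quantile normalization.

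On the entry side, 4 of 17 voltage-gated calcium channel genes rose and 2 fell, beside 33.3% higher and 6.54% lower in their deciles, with the auxiliary subunits Cacnb4 (0.29) and Cacna2d3 (0.33) of smallest p. Of 8 sodium channel genes 5 rose, Scn8a (0.44) and Scn3b (0.29) among them, beside 40.7% higher in their deciles. In calcium release and mitochondrial uptake 4 of 11 rose and 1 fell, beside 26.1% higher and 10% lower in their deciles. Micu3, a regulator of the mitochondrial calcium uniporter, rose by 0.59 (SE 0.12, limma adjusted p = 0.00472) and was the 1 gene of the lists higher after quantile normalization (0.60, limma adjusted p = 0.0177). Micu2, its relative, rose by 0.22. Of 11 calcium buffers and sensors 4 rose, beside 48% higher in their deciles, with Vsnl1 (0.34) and Calm2 (0.25) of smallest p.

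**Figure D4:**
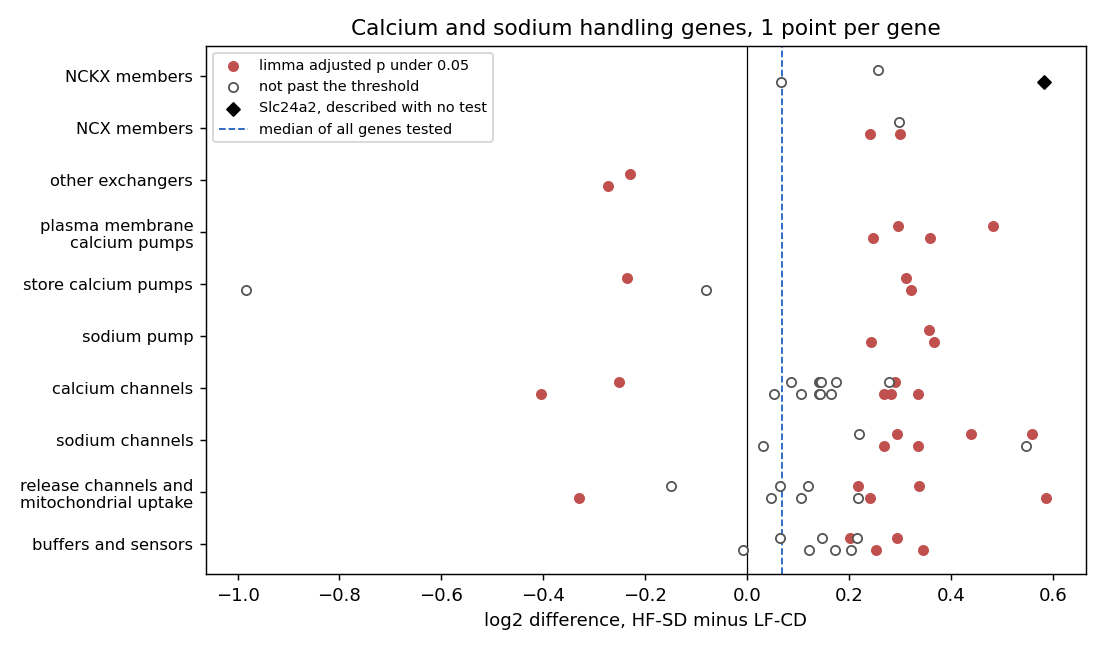
Log2 difference of HF-SD minus LF-CD for each exchanger gene and each tested gene of the calcium and sodium handling lists, 1 point per gene. Red points passed limma's threshold, open points did not, the diamond is Slc24a2 (0.58), and the dashed line is the median of all genes tested (0.07). All plasma membrane and sodium pump genes lie right of the line and both other exchangers left of 0.

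With the flaxseed diet none of the 61 genes passed against low-fat (median log2 difference 0.07). The 2 of smallest p in each list were Slc24a1 (-0.13) and Slc8b1 (-0.12), Atp2b1 (0.25) and Atp2b4 (0.17), Atp2a1 (-0.92) and Atp2c1 (0.15), Atp1b3 (0.16) and Atp1b1 (0.12), Cacna1s (-0.33) and Cacna2d4 (-0.18), Scn3a (0.20) and Scn2a (0.19), Micu2 (0.23) and Micu3 (0.30), and Calb1 (0.32) and Calm2 (0.17). Their adjusted p ran from 0.205 to 0.38. Atp2a1 and Cacna1s, a pump and a channel of skeletal muscle, are named beside the muscle markers given above, highest on LF-CD replicate 3, and the part of those markers in their values was not tested. In HF-SD minus HF-FD none of the 61 passed either, with a median of 0.10.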

How the data were processed

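Hypothalamic RNA of 13 samples was measured on Affymetrix arrays after GeneChip WT PLUS labelling of 100 ng total RNA, per the labels. The deposited log2 values, 1 per array for each of 70580 transcript clusters, were made by the authors with RMA. RMA, Transcriptome Analysis Console and Affymetrix Expression Console are named, per the submitters' processing notes, and versions and genome build are not given in the sources used here. Of the rows, 23446 carry exactly 1 gene symbol in GEO's platform annotation, and 22077 were matched to RefSeq (GRCr8) by gene ID. The row with the highest mean was kept per gene (22093 genes), and 16033 whose mean reached the median row mean were tested with limma 3.58.1 in R 4.3.3 (group means of 3 diets, 10 residual degrees of freedom, eBayes, two-sided, Benjamini-Hochberg, threshold 0.05). The script was tested on simulated data. Members and lists were chosen with earlier results of these data known. Genes most like Slc24a2 are the 5 with the highest correlation over the arrays and the 5 after subtracting diet means, and 2 genes per list are those of smallest p. Marker lists were compared by exact permutation. Alternatives were quantile, loess and median scaling, background as a covariate, filters, array weights, row choice, only the diets compared, the replicate number as a block and leaving out each array.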

Additional observations from a re-analysis of the deposited data

Results flagged for a closer look

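In 18 groups (6 genes on 3 diets) each array was compared with the rest of its group by Dixon's ratio, which flags about 1 in 20 groups by chance. Slc24a4 stood at 7.88 on HF-SD replicate 5, against 7.64 on the next highest HF-SD array. Slc8a1 stood at 8.33 on LF-CD replicate 1, against 8.66 on the next lowest LF-CD array.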

How the results depend on the processing

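For HF-SD minus LF-CD, the 2 exchanger genes past the threshold became 0 with quantile normalization, cyclic loess or the olfactory receptor median as a covariate, 5 with median centring, and 1 to 4 without single arrays (1 without LF-CD replicate 1 or HF-SD replicate 5, 4 without LF-CD replicate 2, where Slc24a3 and Slc8a2 also passed). In the same settings the 6377 genes became 2326, 3099, 0 (793 at an unadjusted p under 0.05) and 9620, and 10003 with no filter on low signal. For HF-FD minus LF-CD, 1 gene passed with no filter and 4713 with array weights. The weights leaned most on replicate 2 of HF-FD (3.81) and of LF-CD (3.08), and least on LF-CD replicate 3 (0.24). For HF-SD minus HF-FD, array weights gave 4667 genes and 2 exchangers, and leaving out single arrays gave 0 to 90 genes (90 without HF-SD replicate 4). The log2 difference of Slc24a2 for HF-FD minus LF-CD was -0.43 with quantile normalization. Without single arrays it ran from -0.21 to 0.044, turning in direction without HF-FD replicate 1. Other differences that turned in direction were, in HF-FD minus LF-CD, Slc24a3 (-0.12 quantile, -0.11 loess, -0.16 weights, -0.055 to 0.13 without single arrays), Slc8a3 (-0.081 quantile, -0.075 loess, -0.036 weights, -0.037 to 0.071 without single arrays), Slc24a4 (-0.0064 weights) and Slc8a1 (-0.13 covariate). In HF-SD minus HF-FD they were Slc24a4 (0.041 quantile, 0.046 loess, 0.11 centring, 0.013 covariate, 0.0037 weights, -0.056 to 0.043 without single arrays) and Slc8a2 (-0.0088 weights, -0.048 replicate block, -0.048 to 0.14 without single arrays), and in HF-SD minus LF-CD Slc24a4 (-0.0026 weights) and Slc8a1 (-0.13 covariate). The olfactory receptor median did not overlap between HF-SD and LF-CD arrays, so the covariate fit can hardly tell background from diet there. The causes were not tested. With the replicate block 4652 genes and the same number of exchangers, 2, passed for HF-SD minus LF-CD. Only HF-SD has a replicate 5, so the block takes up that array whole. Log2 differences with the block therefore equal those without HF-SD replicate 5. Same-numbered arrays correlated at -0.26 to 0.43, and 4 of 12 correlated best with their own number, so the numbers were not taken as pairs. The stricter filter, row choice and fit of only the diets compared changed no exchanger call.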
